A study of Mus musculus with 6 samples.

Results

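The 32 genes described here encode the proteins of the cardiac sarcomere other than its myosin chains: the thin filament and its ends (12 genes), titin and cardiac myosin-binding protein C (2), the M-band (4), the Z-disc with desmin (12) and assembly factors (2). They were chosen by name and not by any measured value. All 32 were found among the 20254 genes of the deposited table, and all 32 reached the level needed for testing, 10 or above in no fewer than 3 libraries, as did 13823 genes in all. Heart RNA of C57BL/6 mice was sequenced in 6 libraries, 3 of them wild-type (WT) and 3 labelled knockout (KO). Each library is called a heart below, although the labels do not say that the 6 came from separate animals. The knocked-out gene is Trdn-as, whose name marks an RNA antisense to the triadin gene Trdn. Replicates 1 and 2 of each genotype were 14 months old and replicate 3 was 5 months old, so that 4 hearts were of the older age and 2, one of each genotype, of the younger. How the knockout allele was made, the sex of the mice, and whether the WT animals were littermates are not stated in the sources used. Values are printed in the order of replicates 1, 2 and 3, so the last value of each trio is the 5-month heart.

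The deposited values are a normalized gene-level signal. The library totals ran from 19810148 to 23510139, of which mitochondrially encoded genes took 39.97 to 49.4%. Whole reads could not be recovered from the values, so the depth behind each is unknown. Over all genes the rank correlation was 0.984 to 0.987 between 14-month libraries, 0.967 between the 5-month libraries and 0.932 to 0.945 between the ages. The sum of Y-linked genes was 213 and 273 in replicate 2 of WT and KO and 2652 to 4775 in the other libraries, in the same way in both genotypes. Trdn, which encodes the triadin of the junctional sarcoplasmic reticulum, was 5702, 5600 and 9104 in WT hearts and 3429, 3460 and 5606 in KO hearts, a fitted difference of −0.71 log2 (SE 0.10, limma adjusted p = 0.261, n = 3 per genotype). Heart identity was checked on 8 ventricular markers. They added up to 747368, 770487 and 1281850 in WT hearts and 709970, 783743 and 781550 in KO hearts. The WT heart of 5 months thus stood far above the other 5. Skeletal muscle markers, 10 of 12 of which were found, added up to 170 to 306, with Myh1 and Myh2 at or below 1.84 in every library.

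Sarcomeres are the contractile units of striated muscle. Thin filaments of cardiac actin carry tropomyosin and the troponin complex, which passes the calcium signal to the crossbridges, and they are anchored at the Z-disc by alpha-actinin. Titin spans from Z-disc to M-band and acts as a molecular spring and ruler, and the myomesins link thick filaments across the M-band. Proteins that dock at the Z-disc, such as telethonin, muscle LIM protein, myopalladin, cypher and filamin C, tie the filament lattice to load sensing and to protein turnover, and variants in many of these genes are known in cardiomyopathy.

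The promoters of these genes are shown first, because letters read by the factors that drive sarcomere genes are a feature that the choice of the genes did not use. A window of 250 bases before a RefSeq transcript start (GRCm38.p6, the mm10 build) was given for 26 of the 32 genes, in 35 windows, and both strands were searched. The CArG box, the letters bound by serum response factor, was found in 4 of the 26 genes (15.4%) and in 1.62% of 27025 genes with such a window. These 4 encode cardiac actin, cypher, myomesin 1 and nebulette. They are printed as 70 bases on the strand of the gene, with the CArG letters in capitals, 47, 35, 99 and 162 bases before the start at chr2:114052893-114052962 (minus strand), chr14:34588687-34588756 (minus), chr17:71019418-71019487 (plus) and chr2:17462989-17463058 (minus).
Actc1: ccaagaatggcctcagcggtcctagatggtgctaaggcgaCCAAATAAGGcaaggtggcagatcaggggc
Ldb3: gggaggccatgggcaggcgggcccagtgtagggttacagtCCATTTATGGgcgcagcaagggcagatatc
Myom1: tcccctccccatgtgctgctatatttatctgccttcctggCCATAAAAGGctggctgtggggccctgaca
Nebl: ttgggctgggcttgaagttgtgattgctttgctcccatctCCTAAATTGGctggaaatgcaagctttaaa

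The binding letters of the MEF2 factors were found in 5 of the 26 genes (19.2%) and in 3.42% of all genes with a window, and no window of a member held both these letters and the CArG box. The 5 encode cardiac myosin-binding protein C, myomesin 3, calsarcin 1, synaptopodin 2-like and titin. Their stretches lie at chr2:91118014-91118083 (plus strand), chr4:135759640-135759709 (plus), chr3:123034991-123035060 (minus), chr14:20668434-20668503 (minus) and chr2:76982684-76982753 (minus), with the MEF2 letters in capitals, 90, 35, 33, 109 and 166 bases before the start.
Mybpc3: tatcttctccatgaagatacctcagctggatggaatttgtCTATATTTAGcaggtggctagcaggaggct
Myom3: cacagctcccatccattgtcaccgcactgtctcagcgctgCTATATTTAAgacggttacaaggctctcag
Myoz2: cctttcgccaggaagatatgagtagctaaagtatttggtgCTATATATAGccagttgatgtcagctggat
Synpo2l: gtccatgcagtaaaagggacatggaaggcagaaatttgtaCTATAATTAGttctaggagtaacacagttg
Ttn: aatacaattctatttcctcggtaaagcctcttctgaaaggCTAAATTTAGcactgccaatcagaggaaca

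The M-CAT letters CATTCC, which TEAD factors bind, were found in 8 of the 26 genes (30.8%; Flnc, Mypn, Nebl, Pdlim3, Tmod1, Tnnc1, Tnnt2 and Tpm1) and in 14.4% of all genes with a window. TATAAA, searched on the strand of the gene, was found in 0 of the 26 and in 8.94% of all. Only this exact spelling was counted, so the genes may still hold TATA-like letters spelled otherwise, as the Tnnc1 window does. A gene with several windows was counted where any of them held the letters. Of the Nebl windows, only that before the start at chr2:17462856 held the CArG letters. That start lies well inside the gene, which begins at chr2:17731464 on the minus strand. Whether this window acts as a promoter was not tested. These shares are descriptions of letters in a short window, and no binding was measured.

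Per kilobase of the principal annotated transcript, cardiac actin Actc1 stood highest of the 32 at 14 months, at 88294 ± 4027 (SD, n = 4) normalized signal per kb. Cardiac troponin T (Tnnt2) followed at 56247 ± 4368, tropomyosin 1 (Tpm1) at 51276 ± 3824, troponin I (Tnni3) at 41961 ± 2939 and troponin C (Tnnc1) at 25832 ± 1608. Tnnt2 and Tpm1 do not differ beyond their spread in this order, while Actc1, Tnni3 and Tnnc1 each stood apart from their neighbours in every 14-month library. From Mybpc3 (8679 ± 761) through Csrp3 (8527 ± 389), Myoz2 (8131 ± 661) and Tcap (7441 ± 1882) to Actn2 (6615 ± 572) and Des (6545 ± 707), each neighbour lay within the spread of the next. The giant titin, whose principal transcript is 100.4 kb long, took rank 24 of 32 per kb (549 ± 62.4). Nebulin (Neb, 8.93 ± 2.96) and myomesin 3 (Myom3, 4.98 ± 0.844), known from skeletal muscle more than from heart, were the lowest.

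**Figure D1:**
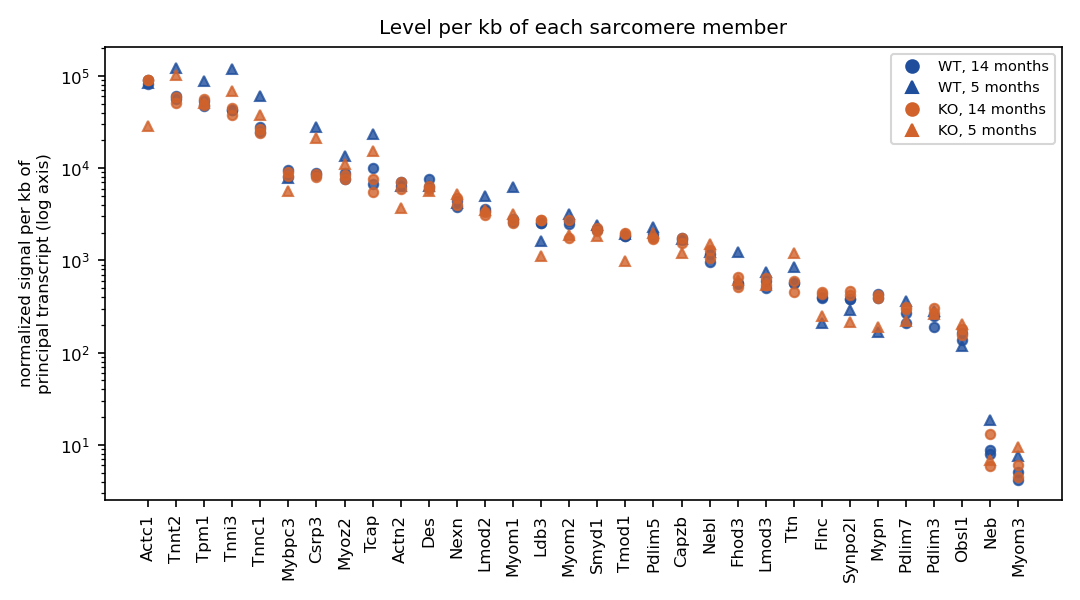
Normalized signal per kb of principal transcript (log axis) for each of the 32 genes, ordered by the mean of the 4 hearts of 14 months. Each point is 1 heart (circles 14 months, triangles 5 months, blue WT, orange KO). The levels run from 88294 for Actc1 to 4.98 for Myom3 at 14 months, and the orange triangle of Actc1 lies at 28676, far below its other points.

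At 5 months the order at the top differed. Tnnt2 took rank 1 (mean 112101 per kb of both hearts), Tnni3 rank 2 (93988), Tpm1 rank 3 (69649.5) and Actc1 rank 4 (56159), with the 2 Actc1 values far apart at 83642 in WT and 28676 in KO. The 32 genes together took 5.36, 5.598 and 6.67% of the signal not mitochondrially encoded in WT and 5.28, 5.71 and 5.74% in KO. Within that share Actc1 made up 19.97, 21.4 and 13.1% in WT hearts and 23.1, 20.8 and 6.36% in KO hearts. Titin made up 9.41, 9.16 and 8.98% in WT hearts and 8.004, 9.45 and 18.4% in KO hearts. The 5-month KO heart therefore had the lowest actin share and the highest titin share of the 6.

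Between the ages, 12 of the 32 genes passed the test, 4 higher and 8 lower at 14 than at 5 months (limma, adjusted p under 0.05, n = 4 against 2, genotype as a covariate). Of all tested genes 33.7% were called, 17.7% higher and 16% lower at 14 months, so the number called is near the background. What is described below is which members differed and by how much. Csrp3, Tcap and the troponins stood at 2.12 to 3.20 times the level of the older hearts in the WT heart of 5 months. In the KO heart of 5 months they stood at 1.48 to 2.54 times that of the older KO hearts. Mypn, Flnc, Ldb3 and Synpo2l stood lower in both 5-month hearts. The median difference of the 32 was −0.15 log2 (14 minus 5 months) against 0.02 over all genes. That sign is not stable, as the median was 0.03 after quantile normalization and 0.04 after scaling to the total that is not mitochondrially encoded. In WT and in KO taken alone, which have no library in common, 22 of the 32 genes differed in the same direction, beside 9844 of all 13823. Both comparisons rest on a replicate 3 heart, so whatever these hearts share besides age enters both.

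**Figure D2:**
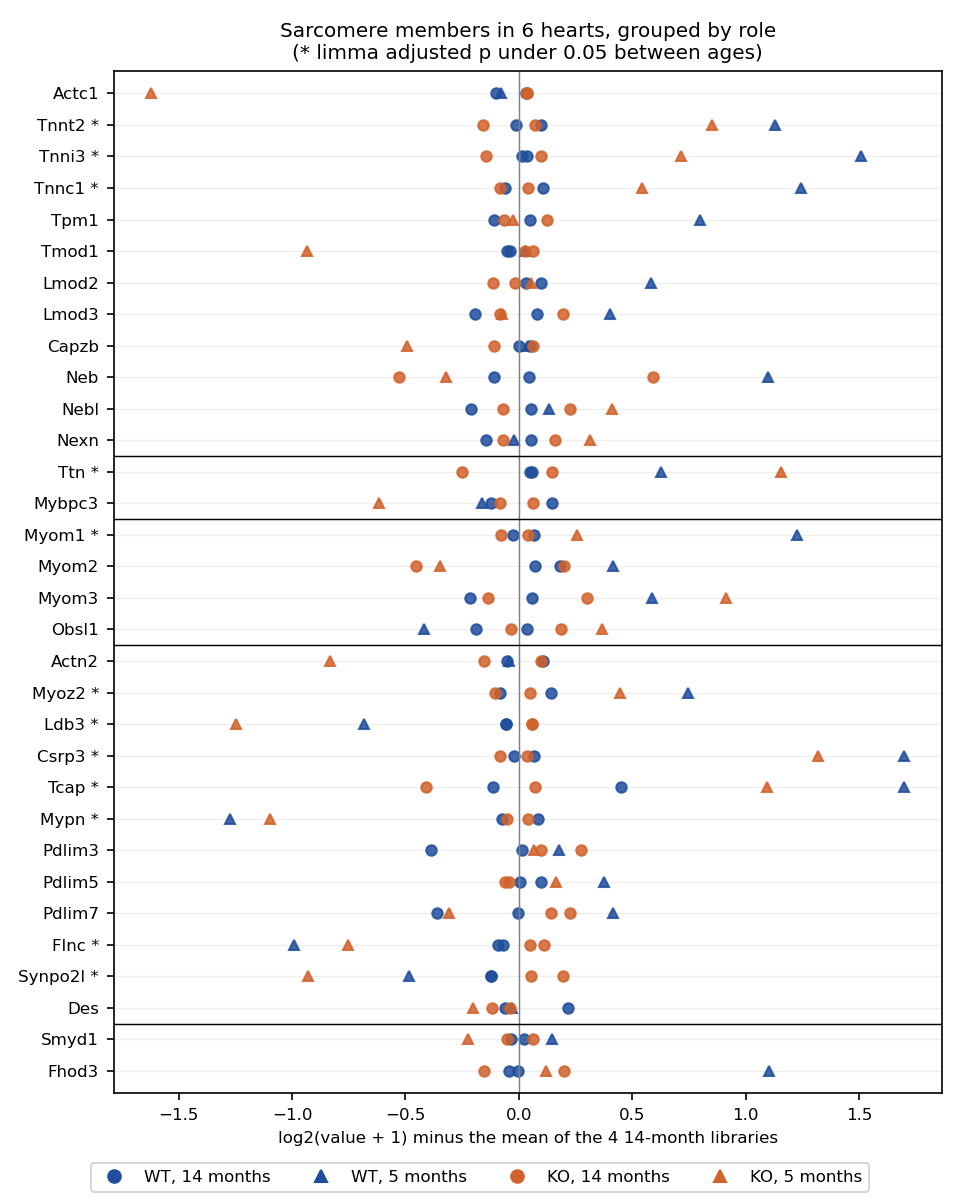
Each gene's log2(value + 1) in each heart, minus the mean of its 4 hearts of 14 months, with the genes grouped by role (thin filament, titin and C-protein, M-band, Z-disc and desmin, assembly). Circles are 14-month and triangles 5-month hearts, blue WT and orange KO, and asterisks mark the 12 genes called between the ages. The triangles of Csrp3, Tcap and Tnni3 lie to the right of every circle and those of Mypn, Flnc and Ldb3 to the left.

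Of the thin filament, all 3 troponin subunits were lower at 14 than at 5 months. Tnni3, the inhibitory subunit, was 39218, 38536 and 108708 in WT hearts and 34511, 40810.2 and 62725 in KO hearts. Both 5-month hearts lay above all 4 older ones, with the WT heart much the highest. The fitted difference was −1.11 log2 (SE 0.19, limma adjusted p = 0.00377), and the 5-month heart held 2.80 times the mean of the older hearts in WT and 1.67 times in KO. Tnnt2, the subunit that binds tropomyosin, was 72128, 66744 and 147545 in WT hearts and 60415, 70699 and 121497 in KO hearts, a difference of −0.99 log2 (SE 0.14, limma adjusted p = 0.00196). Tnnc1, the calcium-binding subunit, was 17814, 20006 and 44078 in WT hearts and 17531, 19149 and 27111 in KO hearts, a difference of −0.89 log2 (SE 0.17, limma adjusted p = 0.00637). In these subunits, too, the ages did not overlap and WT stood above KO at 5 months. Without the WT heart of 5 months the differences of Tnni3 and Tnnc1 were −0.74 and −0.57, and both still passed. After quantile normalization Tnni3 was −0.35 (limma adjusted p = 0.0329) and Tnnt2 −0.46, and both still passed. Without replicate 2 of both genotypes, the replicate with low Y-linked signal, Tnnt2 no longer passed (limma adjusted p = 0.0748).

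The other 9 genes of the thin filament and its ends did not pass between the ages. Actc1 was 121168, 132696 and 123204 in WT hearts and 133157, 133210 and 42240.2 in KO hearts. The WT heart of 5 months lay among the older hearts and the KO heart of 5 months stood alone at 0.317 times the older KO hearts. The fitted age difference was 0.85 log2 (SE 0.31, limma adjusted p = 0.0689), and without that 1 heart it was 0.04 (SE 0.10, limma adjusted p = 0.78). Troponin I relative to actin was 0.324, 0.290 and 0.882 in WT hearts and 0.259, 0.306 and 1.49 in KO hearts, higher at 5 months in both genotypes. Tpm1 was 100564, 90116 and 169074 in WT hearts and 92678, 105928 and 95316 in KO hearts, with only the WT heart of 5 months high (−0.39 log2, SE 0.21, limma adjusted p = 0.186). Neb, at values of 134 to 415, and the leiomodins Lmod2 and Lmod3, which lengthen thin filaments, had the same shape, highest in the WT heart of 5 months and no higher than 1.09 times the older hearts in KO. The pointed-end cap tropomodulin (Tmod1) and the barbed-end cap subunit Capzb showed the reverse, with WT at 5 months near the older hearts and KO at 5 months lowest. Nexn and Nebl, which bind actin near the Z-disc, ranged over 9758 to 13437 and 5589 to 8612, both highest in the KO heart of 5 months.

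Titin (Ttn) was 57068, 56697 and 84605 in WT hearts and 46095, 60609 and 122089 in KO hearts. The 5-month hearts were the highest in each genotype and, unlike for the troponins, the KO heart was above the WT heart. The difference was −0.89 log2 between 14 and 5 months (SE 0.19, limma adjusted p = 0.00923). It was −0.57 without the KO heart of 5 months and still passed. It did not pass without replicate 2 of both genotypes (limma adjusted p = 0.0635), nor after quantile normalization, where it was −0.14 (limma adjusted p = 0.692). Mybpc3, which sits on the thick filament and modulates crossbridge cycling, was 33080.3, 39882 and 32218 in WT hearts and 33982, 37581 and 23514 in KO hearts. Its 14-month hearts all lay above its 5-month hearts, by a margin that did not pass (0.39 log2, SE 0.16, limma adjusted p = 0.0911).

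Of the M-band genes only Myom1 passed. It was 14786, 15788 and 35315 in WT hearts and 14276, 15490.2 and 17989 in KO hearts. The WT heart of 5 months stood at 2.31 times its older hearts and the KO heart at 1.21 times, for a difference of −0.74 log2 (SE 0.20, limma adjusted p = 0.0261). The call was lost without WT replicate 1, 2 or 3 in turn, in KO alone, and without limma's trend and robust options (limma adjusted p up to 0.111). It was −0.27 without the WT heart of 5 months, −1.21 without the KO heart of 5 months and −0.42 after quantile normalization. Myom3, at the low values of 23.5, 28.6 and 41.8 in WT hearts and 24.9, 34.0 and 52.6 in KO hearts, did not pass (−0.75 log2, SE 0.29, limma adjusted p = 0.0817), although its ages did not overlap. Myom2 (8803 to 16044) and the obscurin relative Obsl1 (668 to 1151) overlapped between the ages.

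The Z-disc genes split. Csrp3, muscle LIM protein, was 7545, 8023 and 24892 in WT hearts and 7234, 7861 and 19143 in KO hearts. The older hearts agreed within 4.56% (coefficient of variation), and the 5-month hearts stood at 3.20 times that level in WT and 2.54 times in KO. Its difference of −1.51 log2 (SE 0.13, limma adjusted p = 0.00036) was the largest of the 32. Tcap, telethonin, which caps titin at the Z-disc, was 6367, 9412 and 22371 in WT hearts and 5190, 7247 and 14708 in KO hearts, a difference of −1.40 log2 (SE 0.20, limma adjusted p = 0.00208). Myoz2, calsarcin 1, a calcineurin-binding Z-disc protein, was 9044, 10564 and 16060 in WT hearts and 9909, 8895 and 13034 in KO hearts (−0.59 log2, SE 0.13, limma adjusted p = 0.0122). The call of Myoz2 was lost after quantile normalization (−0.31) and without replicate 2 of both genotypes (limma adjusted p = 0.1).

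In the other direction, Mypn, myopalladin, which binds actinin, nebulette and titin, was 2278, 2040.5 and 889 in WT hearts and 2210.2, 2074 and 1003 in KO hearts. All 4 older hearts lay above both 5-month hearts, by 1.19 log2 (SE 0.12, limma adjusted p = 0.000592). Flnc, filamin C, an actin crosslinker at the Z-disc and membrane, was 3536, 3583 and 1891 in WT hearts and 3899, 4070.3 and 2233 in KO hearts, higher at 14 months by 0.87 log2 (SE 0.11, limma adjusted p = 0.0012). Ldb3, cypher, a PDZ and LIM protein that binds actinin, was 12947, 12929 and 8376 in WT hearts and 14032, 14003 and 5665 in KO hearts (0.97 log2, SE 0.16, limma adjusted p = 0.0039; 0.63 without the KO heart of 5 months). Synpo2l, an actin-associated Z-disc protein, was 1500.3, 1500.1 and 1167 in WT hearts and 1694, 1868 and 856 in KO hearts (0.71 log2, SE 0.17, limma adjusted p = 0.0138), and without the KO heart of 5 months it was 0.36 (limma adjusted p = 0.0505). The ratio of Csrp3 to Mypn, the members with the largest age difference in each direction, restates the contrast in single hearts. It was 3.31, 3.93 and 28.0 in WT hearts and 3.27, 3.79 and 19.1 in KO hearts. The ratio of Tcap to Ldb3 was 0.492, 0.728 and 2.67 in WT hearts and 0.370, 0.518 and 2.60 in KO hearts. Each pair joins genes called in opposite directions in these same hearts. A gap between the ages therefore follows from the choice of genes, and the ratios are not a further test.

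The other Z-disc genes did not pass. Desmin (Des), the intermediate filament that ties Z-discs together, was 18924, 22957 and 19332 in WT hearts and 19233, 18156 and 17153 in KO hearts, a difference of 0.12 log2 with a 95% interval of −0.19 to 0.42 (limma adjusted p = 0.531). Actn2, alpha-actinin 2, was 19164, 21413 and 19286 in WT hearts and 17862, 21285 and 11170 in KO hearts, with only the KO heart of 5 months apart, at 0.571 times the older KO hearts (0.44 log2 between the ages, SE 0.19, limma adjusted p = 0.105). The PDZ and LIM genes Pdlim3 and Pdlim5 ranged over 306 to 483 and 8571 to 11603. Pdlim7, a further gene of that kind, was 456, 357 and 610 in WT hearts and 504, 535 and 370 in KO hearts, so the 5-month heart stood at 1.503 times the older ones in WT and 0.711 times in KO. Of these, Pdlim5 was higher in both 5-month hearts than in the older ones, without passing the test. The assembly genes did not pass: Smyd1, a muscle methyltransferase needed for thick filament assembly, differed by 0.04 log2 (95% interval −0.27 to 0.34), and Fhod3, a formin of thin filament assembly, by −0.61 log2 (SE 0.22, limma adjusted p = 0.0683), with 6641 in the WT heart of 5 months and 2780 to 3548 elsewhere.

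**Figure D3:**
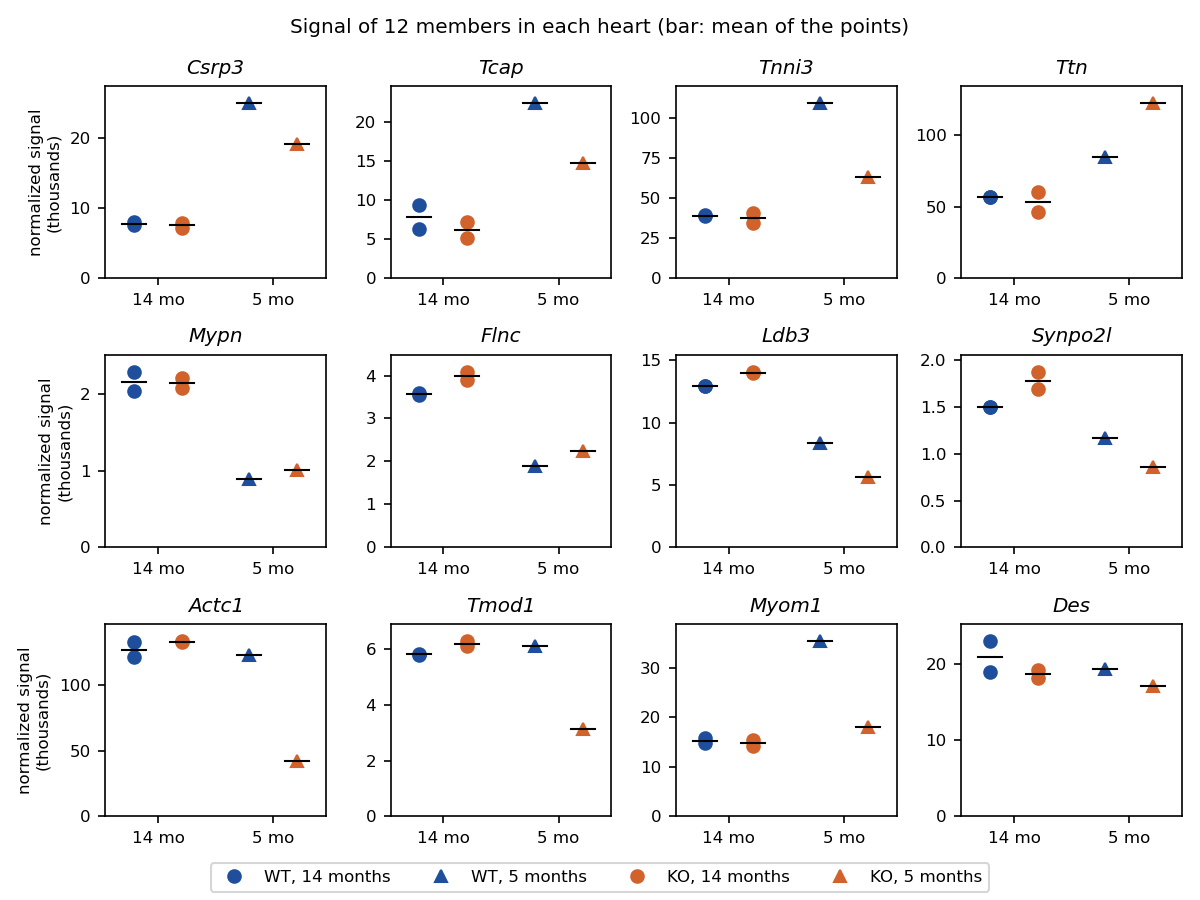
Normalized signal (axes from 0) of 12 of the genes in each heart, with a bar at the mean of the points; circles are 14-month and triangles 5-month hearts, blue WT and orange KO. Csrp3, Tcap, Tnni3 and Ttn are high at 5 months in both genotypes and Mypn, Flnc, Ldb3 and Synpo2l are low, while Actc1 and Tmod1 are low in the KO heart of 5 months only and the ages overlap in Des.

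In 15 of the 32 genes the ages did not overlap, 10 with both 5-month hearts above all older ones and 5 with both below. Over all genes 25% and 25.7% did so. Of the 12 called genes, 7 (Tnni3, Tnnc1, Ldb3, Csrp3, Tcap, Mypn and Flnc) were called under all 17 alternative settings, and all 12 kept their direction under each. The balance of calls is less firm than the genes: it was 10 higher and 7 lower after quantile normalization, 9 and 8 after scaling to the total that is not mitochondrially encoded, 9 and 7 without the WT heart of 5 months and 3 and 13 without the KO heart of 5 months. Some genes not called above were called under these settings. Actc1, Mybpc3 and Actn2 were called higher at 14 months after quantile normalization, after scaling to the total that is not mitochondrially encoded, by limma-voom, without the WT heart of 5 months and in KO alone, Tmod1 under all of these but limma-voom, and Des and Smyd1 after quantile normalization. Without the KO heart of 5 months Tpm1, Lmod2, Pdlim5, Pdlim7 and Fhod3 were called lower. The scaling to the total that is not mitochondrially encoded moved the median age difference of all genes from 0.02 to 0.22.

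Some cell markers moved with age as well. The 4 atrial markers were all lower at 14 months (sums of 23359, 17175 and 60737 in WT hearts and 21072, 12591 and 38743 in KO hearts), and none of them was near 0 in any library. Of 5 endothelial markers 4 were higher at 14 months (sums of 14841, 14104 and 8638 in WT hearts and 15763, 12597 and 7794 in KO hearts). Of the 8 ventricular markers, 2 of which (Tnnt2 and Actc1) are among the 32, 1 was higher and 4 were lower. Fibroblast markers were higher at 14 months in 3 of 7 and macrophage markers in 2 of 5, and smooth muscle markers in 1 of 6. Adipocyte markers were lower in 1 of 5 tested, and 0 of 5 erythroid and 0 of 3 tested skeletal muscle markers passed. In whole tissue, fewer cells of a type and less RNA per cell cannot be told apart, and the part of these markers in the differences of the 32 genes was not tested. Over all protein-coding genes the median age difference ran from −0.24 in the quintile of lowest transcript GC content to 0.31 in the quintile of highest, and from −0.28 in the shortest quintile to 0.14 in the longest, and its part was not tested either. As each genotype gave 1 heart of 5 months, age cannot be told apart from whatever else the replicate 3 hearts share.

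Between KO and WT, 0 of the 32 genes passed (limma, age as a covariate, n = 3 per genotype), as did 0% of all tested genes; at an unadjusted p under 0.05 the numbers were 0 of 32 and 841 genes (6.08%), and limma-voom called 0. The fitted differences ran from −0.47 log2 for Actc1 (SE 0.29, 95% interval −1.15 to 0.21, limma adjusted p = 0.745) to 0.36 for Obsl1 (SE 0.16, interval −0.01 to 0.73, adjusted p = 0.745). Next after Actc1 were Neb at −0.43 (interval −1.28 to 0.42), Tcap at −0.43 (−0.86 to 0.01) and Myom2 at −0.42 (−0.86 to 0.02). In none of the 32 did all KO hearts lie above or below all WT hearts, where 2.88% and 2.89% of all genes did. For 22 of the 32 the estimate was below 0, as for 53.9% of all genes, with a median of −0.15 against −0.02. After quantile normalization the median was 0.0046 with 15 of 32 below 0, and after scaling to the total that is not mitochondrially encoded it was −0.05 against 0.08 over all genes. The lean was also not present at 14 months: in the 4 older hearts alone the median was 0.00, 16 of 32 estimates were below 0 and 0 genes passed (smallest adjusted p = 0.797).

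KO minus WT was also taken by replicate number. For replicate 3 the number stands for the age, while at 14 months it ties no WT heart to a KO heart, so the values of replicates 1 and 2 show only how far hearts of 1 age differ. It had a median over the 32 genes of −0.05 log2 in replicate 1, 0.10 in replicate 2 and −0.47 in replicate 3, beside −0.01, 0.00 and −0.06 over all genes. The number of members below 0 was 19, 11 and 25, the last beside 54.1% of all genes. At least 0.5 log2 apart were 1 member in replicate 1 (Myom2, −0.64), 2 in replicate 2 (Pdlim7 and Neb, both higher in KO) and 17 in replicate 3, where 15 were lower and 2 higher in KO. Over all genes 15.5%, 15.6% and 37.4% were as far apart, the last made up of 19.5% lower and 17.9% higher. The 2 higher in KO at 5 months were Obsl1 (0.78) and Ttn (0.53). In the KO heart of 5 months Actc1 stood at 34.3% of the WT heart of that age, Neb at 37.2%, Fhod3 at 50.5%, Myom1 at 50.9%, Tmod1 at 51.4% and Tpm1 at 56.4%.

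**Figure D4:**
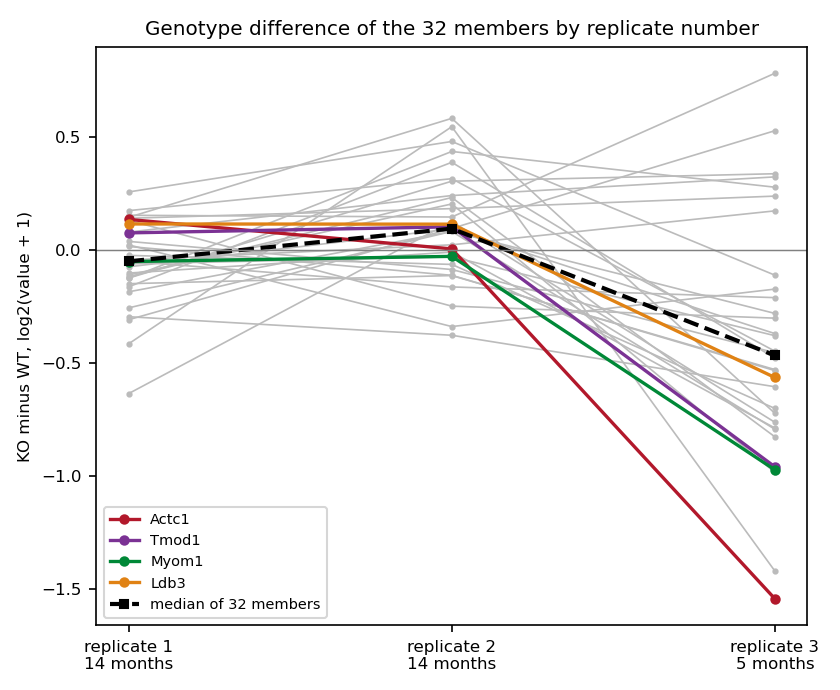
KO minus WT in log2(value + 1) for each of the 32 genes (lines), by replicate number, with the genes called in the test of genotype by age in colour and the median of all 32 dashed. The median is −0.05 and 0.10 in the 14-month replicates, whose numbers do not pair the hearts, and −0.47 at 5 months, where Actc1 is lowest at −1.54.

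The difference between the ages in KO minus WT was tested as an interaction, 5 minus 14 months. It passed for 4 of the 32 genes, all lower in KO at 5 months, against 2.08% of all genes (0.883% in the direction of KO higher and 1.19% lower). At an unadjusted p under 0.05 the count was 18 of 32 against 23.2% of all genes, and 25 of 32 estimates were below 0 against 53.4%. The called genes were Actc1 (−1.62 log2, SE 0.14, limma adjusted p = 0.0109), Tmod1 (−1.05, SE 0.13, adjusted p = 0.0293), Myom1 (−0.93, SE 0.14, adjusted p = 0.032) and Ldb3 (−0.68, SE 0.12, adjusted p = 0.0465). Tpm1 (−0.88, SE 0.17, adjusted p = 0.0532) and Fhod3 (−1.03, SE 0.21, adjusted p = 0.0601) lay just outside the threshold, and Ttn pointed the other way (0.64, SE 0.23, adjusted p = 0.163). Of the 7 genes called by age under all alternatives, Ldb3 was thus also called here, Tnni3 (−0.74, adjusted p = 0.071) and Tnnc1 (−0.66, adjusted p = 0.0755) had estimates of like size without passing, and Csrp3 (−0.33), Tcap (−0.27), Mypn (0.18) and Flnc (0.08) had smaller ones. The lean was not particular to the 32, whose median estimate was −0.46 beside −0.05 over all genes. In the lists described below it was −0.39 over 45 other genes of sarcomere structure, with 32 of them below 0 and 13 above. It was −0.46 over 19 genes of sarcomere folding and turnover, with 15 below 0 and 4 above, and −0.08 over 20 regulators. Estimates of like size to those of Actc1, Tmod1, Myom1 and Ldb3 were also found in these lists. Examples were Cryab at −1.34, Pdlim1 at −1.33, Myh6 at −1.26 and Bag3 at −0.89. The interaction test has 1 heart per genotype at 5 months and takes its spread from the 14-month hearts. It therefore cannot tell a genotype difference from a difference between 2 single libraries. Ldb3 also lost its call without KO replicate 1 (limma adjusted p = 0.0659) or 2 (0.0571). None of the 4 calls held under all 11 alternatives run, while their direction held under each; 0 members were called without WT replicate 1, without WT replicate 2, with no filter on low values, after quantile normalization or without the trend and robust options, and 8 without KO replicate 1.

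Several other differences between the 2 hearts of 5 months stood alongside. The 32 genes summed to 606665, 619198 and 941723 in WT hearts and 575934, 641134 and 663820 in KO hearts. The WT heart of 5 months thus stood apart in the sum. Relative to older hearts of their genotype, Myom1, Fhod3 and Tpm1 were at 2.31, 2.18 and 1.77 times in that WT heart. In the KO heart of 5 months they were at 1.21, 1.06 and 0.960 times. Actc1 was at 0.971 times in WT and 0.317 times in KO. KO minus WT in replicate 3 had a median of −0.37 log2 in the quintile of protein-coding genes with the shortest exon length, rising through −0.17, −0.01 and 0.05 to 0.18 in the longest, while in replicates 1 and 2 the medians lay between −0.03 and 0.04. Among 317 genes with a mean value of 5000 or more the replicate 3 median was −0.40, and among the 21 members at that level it was −0.53. Titin, with the greatest exon length of the 32, was 1 of the 2 at least 0.5 log2 higher in KO, and Actc1, with 1618 bases of exons, was lowest. Neb did not follow that order: its exon length of 26582 bases was next to that of titin, and at −1.42 it was next to Actc1. Smooth muscle markers summed to 3691 in the KO heart of 5 months and 5759 to 7100 in the other 5, and fibroblast markers to 11753 against 16493 to 18989. Macrophage markers summed to 1729 against 2145 to 2903, and erythroid markers to 2727 against 6782 to 66820, the highest being WT replicate 1. The part of length, abundance and these markers in the result was not tested.

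Actc1 was also set against genes it could be confused with. Of its transcript's 31-base words 0.832% occur in another gene, the most in Actg2, whose values were 18 to 43, and skeletal actin Acta1 was at 1103 to 4894. Relative to phospholamban (Pln), another abundant cardiomyocyte transcript, Actc1 was 1.16, 1.36 and 1.05 in WT hearts and 1.49, 1.24 and 0.378 in KO hearts. The low Actc1 of the KO heart of 5 months is thus seen against Pln, which itself was 117175 in WT and 111709 in KO at 5 months. Pln differed least of the 8 ventricular markers there. All 8 were lower in KO at 5 months, with a median of −0.50 log2. Myh6 was 400427 in WT and 164726 in KO at that age, so the ratio depends on the gene chosen. Tmod1 overlaps Tstd2 on the opposite strand and shares 40.2% of its 31-base words with it, so its reads cannot be told apart from that gene's where counting ignored strand. Tstd2 was at 197 to 292, far under the 3136 to 6270 of Tmod1. The CArG letters shown above were present in 3 of the 4 genes called for interaction (Actc1, Ldb3 and Myom1) and, as the exception among the CArG genes, Nebl stood at 121% of WT in the KO heart of 5 months. The overlap was noted after the values were seen and is given with no test.

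Among 48 other genes of sarcomere structure, 45 were tested, and 10 were higher and 12 lower at 14 months, beside 17.7% and 16% of all genes. The 6 with the largest differences among the higher were Zyx (zyxin, 2.05 log2, SE 0.16, limma adjusted p = 0.000265), Xirp1 (1.53), Vcl (vinculin, 0.88), Lmod1 (a leiomodin that also counts among the smooth muscle markers, 0.87), Actn1 (0.85) and Actn4 (0.77). Zyx was 1863, 1274 and 380.5 in WT hearts and 1462, 1506 and 349 in KO hearts, so the ages did not overlap. Among the lower they were Myl7 (−1.72 log2), Myl4 (−1.13), Myh7b (−0.94), Myl2 (−0.93), Tmod4 (−0.79) and Fhl2 (−0.70). Without the KO heart of 5 months Vcl (0.59), Lmod1 (0.53) and Myh7b (−0.64) did not pass, and without the WT heart of 5 months Myl4 (−0.77), Myl2 (−0.52), Tmod4 (−0.43) and Fhl2 (−0.30) did not. The calls of Lmod1, Tmod4 and Fhl2 were also lost without single 14-month hearts. After quantile normalization Myl2 was −0.30 and did not pass, and Fhl2 was −0.35. Myl7 and Myl4 are atrial light chains, and both also count among the atrial markers above. The balance became 13 higher and 6 lower after quantile normalization and 14 and 6 after scaling to the total that is not mitochondrially encoded. Between KO and WT 0 of the 45 passed.

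Of 19 genes of sarcomere folding and turnover, 3 were higher and 4 lower at 14 months, a share near the 33.7% of all genes. Bag3 (1.35 log2, SE 0.19, limma adjusted p = 0.00206), a co-chaperone of filamin C turnover, was 3433, 3076 and 1738 in WT hearts and 3449, 3643 and 1022 in KO hearts. The small heat shock protein Hspb7 was higher by 1.01 log2 and the protease calpain 1 (Capn1) by 0.95. Hspb8, named here after its value was seen because it is the small heat shock partner of Bag3, did not pass (0.31 log2, limma adjusted p = 0.197). The ubiquitin ligase MuRF1 (Trim63, −0.56 log2) and its relative Trim54 (−0.50), together with Fbxo30 (−0.59) and Hsp90aa1 (−0.70), were lower. Without the KO heart of 5 months Fbxo30 (−0.25) and Hsp90aa1 (−0.50) did not pass, and both calls were also lost without other single hearts. Trim54 was lost without WT replicate 1 (limma adjusted p = 0.0517), and Trim54 and Trim63 without replicate 2 of both genotypes. After scaling to the total that is not mitochondrially encoded Hsp90aa1 (−0.50), Fbxo30 (−0.39) and Trim54 (−0.31) did not pass, and Trim63 was −0.36. Hsp90aa1 did not pass after quantile normalization either (−0.48), and by limma-voom Hsp90aa1 (−0.63) and Fbxo30 (−0.52) did not. Between KO and WT 0 of the 19 passed.

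Of 20 transcription and splicing regulators of sarcomere genes, 11 were higher at 14 months, 0 lower and 9 did not pass, with a median of 0.67 log2 against 0.02 over all genes, of which 17.7% were called higher. Mef2d (1.14 log2, SE 0.15, limma adjusted p = 0.0015) was 2693, 2867 and 1025 in WT hearts and 2906, 2991 and 1644 in KO hearts. Myocd (1.07), Yy1 (1.07), Gata4 (0.93), Nkx2-5 (0.93) and Hand2 (0.86) followed. Myocd was 0.40 without the WT heart of 5 months and Hand2 0.56 without the KO heart, and neither passed then or without some 14-month hearts, while Gata4 was 0.59 without the KO heart of 5 months and still passed. Serum response factor (Srf), named here after its value was seen because it binds the CArG box, was 1282, 870.5 and 755 in WT hearts and 1413, 1503 and 787 in KO hearts (limma adjusted p = 0.0207). Between KO and WT 0 of the 20 passed. No regulator was called lower by age under any of the 17 alternatives, and the number called higher ran from 7 to 15. The regulators were measured in the same libraries as the 32 genes, and no relation between the lists was tested. Of the 25 genes outside the 32 whose age differences are given, 12 were called under all 17 alternatives and all 25 kept their direction.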

How the data were processed

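RNA was isolated by Trizol and sequencing libraries were built for Illumina machines, per the labels' protocols. The submitters' processing notes name Salmon 1.5.2 and mm10; how the values were then normalized was not stated in what was used here. Each value deposited by the authors is a normalized signal for 1 gene. It is not a read count: only 4.43 to 6.14% of low values per library were whole multiples of the commonest low value (tolerance 0.01). GENCODE M21 gave symbols for 20146 genes, 108 had none, and 108 lines with no values were dropped.

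Differences were computed with limma 3.58.1 in R 4.3.3 on log2(value + 1), with trend and robust moderated variances, over the 13823 genes at 10 or more in at least 3 libraries (6431 left out), two-sided, with Benjamini-Hochberg adjustment over all of them and a threshold of 0.05. The planned count model was not used because the values are not counts. Genotype and age came from 1 additive model (3 residual degrees of freedom) and the interaction from a further one (2). A log2(value + 1) difference understates the change of low genes such as Myom3. SD is over the hearts of a group, and SE is limma's. The labels do not say that replicates are separate animals, so the p-values measure the spread between these samples. The limma script was tested on simulated data first. Levels per kb divide by the principal GENCODE transcript, and promoter windows are from RefSeq.

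The members, lists and tests were chosen with earlier results of these data known. All 32 members are named; of each other list, called genes up to 6 per direction by size. The lists are other sarcomere structure, sarcomere folding and turnover, regulators, and 9 sets of cell markers. Replicate numbers are shared by the genotypes. With the genotype mean removed, same-number libraries correlated at 0.390, 0.382 and 0.617, but 14-month libraries of different number at 0.369 and 0.382, and with the 14-month mean removed the same-number value was 0.0147. The numbers therefore follow age and were not taken as pairs. Alternatives were another pseudocount (10), filter, scaling, variance option, limma-voom, covariates, each library left out, replicate 2 left out, and single genotypes or ages.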

Additional observations from a re-analysis of the deposited data

Results flagged for a closer look

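In Actc1 the lowest of the 4 hearts of 14 months, WT replicate 1 at 121168, stood apart from the other 3, which lay between 132696 and 133210. This gap was measured in each of the 32 genes as a share of the range of the 4 hearts, and chance gives such a gap in about 1 group in 20. The 14-month values of Actc1 lie close together (coefficient of variation 4.56%), so the gap is small in size.

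In 4 genes KO minus WT at 5 months differed from that at 14 months by limma's interaction test. The difference was −1.62 log2 in Actc1, −1.05 in Tmod1, −0.93 in Myom1 and −0.68 in Ldb3. All rest on the single KO and WT hearts of 5 months, and none of the 4 was called under all 11 alternatives.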

How the results depend on the processing

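Of the results for the 32 genes, 0 were called between KO and WT under each alternative. The replicate block in place of age gave 0 called members with a smallest adjusted p of 0.886, and the numbers do not pair the samples, so it is given as a hint only; it changed no call. Without replicate 2 of both genotypes limma called 84 genes in all and 0 members. The genotype estimates of Actc1 and Neb turned to 0.071 and 0.066 in the 14-month hearts alone, and over single hearts left out ran from −0.66 to 0.071 and from −0.89 to 0.066. For age the median of the 32 was 0.030 after quantile normalization, 0.044 after scaling to the total that is not mitochondrially encoded, −0.34 in WT alone (19 members called) and 0.086 in KO alone, and −0.34 to 0.086 with single hearts left out. Tpm1 turned to 0.14 after quantile normalization and 0.056 in KO alone (−0.83 to 0.056 with hearts left out), and Smyd1 to −0.15 in WT alone (−0.15 to 0.23). For the interaction, 0 members were called with no filter, after quantile normalization or without the trend and robust options, 1 by limma-voom and 0 to 8 with single hearts left out. Its median was −0.055 after quantile normalization and −0.16 by limma-voom, where Csrp3 turned to 0.088 under the former. The interaction could not be fitted without either 5-month heart or without replicate 2 of both genotypes. The cause of these changes was not tested. Depth is unknown, so no floor can be given for low values such as those of Myom3 and Neb.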
